A study of Homo sapiens with 12 samples.

Results

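The urothelial differentiation genes described here comprise 5 uroplakin genes (UPK1A, UPK1B, UPK2, UPK3A and UPK3B) and 5 transcription factor genes (PPARG, GATA3, ELF3, GRHL3 and KLF5). They were chosen by symbol, and each of the 10 matched a row of the 60666 genes in the count table. RNA-seq was performed on HT1376, an established human bladder carcinoma cell line, in 4 groups of 3 libraries, with the replicate numbers 11, 12 and 13 in every group. HT1376 CT (labelled WT) is a single-cell clone that received CRISPR/Cas9 with a control guide against luciferase, and HT1376 FOXP3 KO is a single-cell clone in which FOXP3, a forkhead transcription factor best known from regulatory T cells, was targeted. Each line was left untreated (labelled UTR) or given IFNγ for 48 hours. The authors give a dose of 100 ng/mL for IFNγ in their cell cultures and no separate dose for the RNA-seq. With 1 clone per line, the loss of FOXP3 and a difference between clones cannot be told apart. No source states that the 3 libraries of a group came from separate cultures, so the p-values measure the spread between these libraries, which may be technical.

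Urothelium is the layered epithelium that lines the bladder, and its outermost umbrella cells are covered by plaques of uroplakins. The tetraspanins UPK1A and UPK1B pair with UPK2 and with UPK3A or UPK3B, and vesicles then carry the assembled plaques to the apical surface. PPARG, a nuclear receptor that acts with RXRA, works with GATA3, ELF3, GRHL3 and KLF5 in the network that drives luminal and terminal urothelial differentiation, and low PPARG and GATA3 are known features of basal and squamous bladder cancers.

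Library totals ranged from 4490684 to 39270042 counts, with a median of 15551201.5, and the shallowest library was replicate 12 of CT under IFNγ. FOXP3 had at most 3 counts in any library and 0 in 8 of the 12, so its RNA could not check the knockout label. IRF1, GBP1 and CIITA of the IFNγ treatment check rose in both lines. The 6 epithelial markers summed to 4250 to 4630 normalized CPM (counts scaled to a common library size) in untreated CT and 3920 to 4800 in untreated KO, and the 5 leukocyte markers summed to at most 3 CPM in any library, with LYZ at 3 counts or fewer throughout. The 5 fibroblast markers differed more, at 45.4 to 63.2 CPM in untreated CT and 471 to 703 CPM in untreated KO. Among them LUM, DCN, COL1A2 and PDGFRB rose and COL1A1 fell. The part of these markers in the results on the urothelial genes was not tested.

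All 10 genes are protein-coding and lie on the forward strand of GRCh38. UPK1B (ENSG00000114638) spans chr3:119173517-119205143, UPK1A (ENSG00000105668) chr19:35666517-35678481, UPK2 (ENSG00000110375) chr11:118925164-118958559, UPK3A (ENSG00000100373) chr22:45284949-45295874 and UPK3B (ENSG00000243566) chr7:76510525-76516522. PPARG (ENSG00000132170) spans chr3:12287368-12434356, GATA3 (ENSG00000107485) chr10:8045378-8075198, ELF3 (ENSG00000163435) chr1:202007945-202017183, GRHL3 (ENSG00000158055) chr1:24199558-24364482 and KLF5 (ENSG00000102554) chr13:73054976-73077541. In the GENCODE annotation ELF3 shares 664 exon bases with ELF3-AS1 on the other strand, UPK1A shares 271 with UPK1A-AS1 and UPK2 shares 54 with BCL9L. On the same strand ELF3 shares 664 with the lncRNA ENSG00000249007 and UPK1B 33 with the protein-coding ENSG00000251012. The strand setting of the counting is not given in the sources used here, and no strand setting separates genes on the same strand, so reads in these shared bases cannot be assigned with certainty. UPK3B has the near copies UPK3BL1 and UPK3BL2, and its low counts carry that uncertainty.

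Promoter windows of 300 bases (250 before the RefSeq start and 50 after it, GRCh38.p14) matched 8 of the 10 genes, all except UPK2 and UPK3A, with 20 windows in all because PPARG, GATA3, GRHL3 and KLF5 have several starts. Both strands were searched for the forkhead motifs TGTTTAC and TAAACA, the palindromic STAT motif TTCNNNGAA, the GATA motif AGATAA and the grainyhead motif CCGGTT; the first 2 motifs overlap in letters. Windows of all genes held these in 3.42%, 12.3%, 7.66%, 10.3% and 7.23% of 35116 cases. In the windows of the 8 genes TGTTTAC was found in 0, TAAACA in 5 (in PPARG and GATA3), TTCNNNGAA in 1 (UPK1B), AGATAA in 2 (1 each of PPARG and GRHL3) and CCGGTT in 2 (1 each of UPK1B and GRHL3). Overlapping PPARG windows held the same TAAACA site, so windows with a match are not all separate sites. The stretches below are shown because their genes carry the results that follow, with the match in capitals.
UPK1B, STAT motif at -49 to -41, chr3:119173539-119173568: gtcctggaggTTCAAAGAAttgcaggaggg
UPK1B, grainyhead motif at -153 to -148, chr3:119173433-119173462: aactgacagcctCCGGTTactcccccgcct
GRHL3, grainyhead motif on the reverse strand at -70 to -65, chr1:24322958-24322987: cactgggatcttAACCGGgtcttagccgag
PPARG, forkhead motif TAAACA on the reverse strand at -80 to -75, chr3:12288968-12288997: tttacgcctcggTGTTTAgggaggagccta
GATA3, forkhead motif TAAACA on the reverse strand at -207 to -202, chr10:8049635-8049664: cagccggcgagcTGTTTAtacagctttacc
A match to these letters is a description and shows no binding.

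Of the uroplakins, UPK1B was the one expressed at a high level in HT1376. Its level per length, in RPKM (CPM divided by the kilobases of exon), was 239 ± 10.04 (SD, n = 3) in untreated CT. Averaged over the 12 libraries, its RPKM exceeded that of 99.6% of genes with an annotated length and at least 10 counts in all. UPK1B made up 99.5% to 99.9% of the summed RPKM of the 5 uroplakins in every library. UPK3A, the partner that joins UPK1B in mature plaques, had 0 counts in all 12 libraries, which allows at most 0.0145 CPM over the 207437483 counts together (counting error only). UPK1A had 7 counts in all, from 4 in replicate 11 of untreated CT, 2 in replicate 12 of untreated KO and 1 in replicate 13 of CT under IFNγ. UPK2 had 92 counts and UPK3B 124 over the 12 libraries. In bulk RNA, fewer cells expressing a gene and less RNA per cell cannot be told apart.

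Among the transcription factors in untreated CT, GATA3 was highest at 48.5 ± 5.34 RPKM (SD, n = 3), followed by KLF5 at 30.6 ± 3.11, GRHL3 at 12.7 ± 5.73, ELF3 at 5.51 ± 1.41 and PPARG at 1.68 ± 0.227. In untreated KO the order was different, with KLF5 at 38.5 ± 1.86 RPKM, GATA3 at 29.9 ± 1.496, PPARG at 4.52 ± 0.705, ELF3 at 3.74 ± 1.08 and GRHL3 at 0.933 ± 0.355. PPARG and ELF3 in untreated KO lay within their spread of each other. PPARG moved from the lowest of the 5 in CT to above GRHL3 in KO. Under IFNγ KLF5 led in CT at 46.9 ± 3.54 RPKM, with GATA3 at 39.8 ± 6.82 within its spread, and KLF5 also led in KO at 34.6 ± 2.58, ahead of GATA3 at 29.4 ± 2.76. The level per length of PPARG rests on a union of annotated exons of 11981 bases. With the longest annotated transcript instead, its level was 4.43 RPKM in untreated CT and 12.0 in untreated KO, and that of ELF3 was 7.93 and 5.38.

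**Figure D1:**
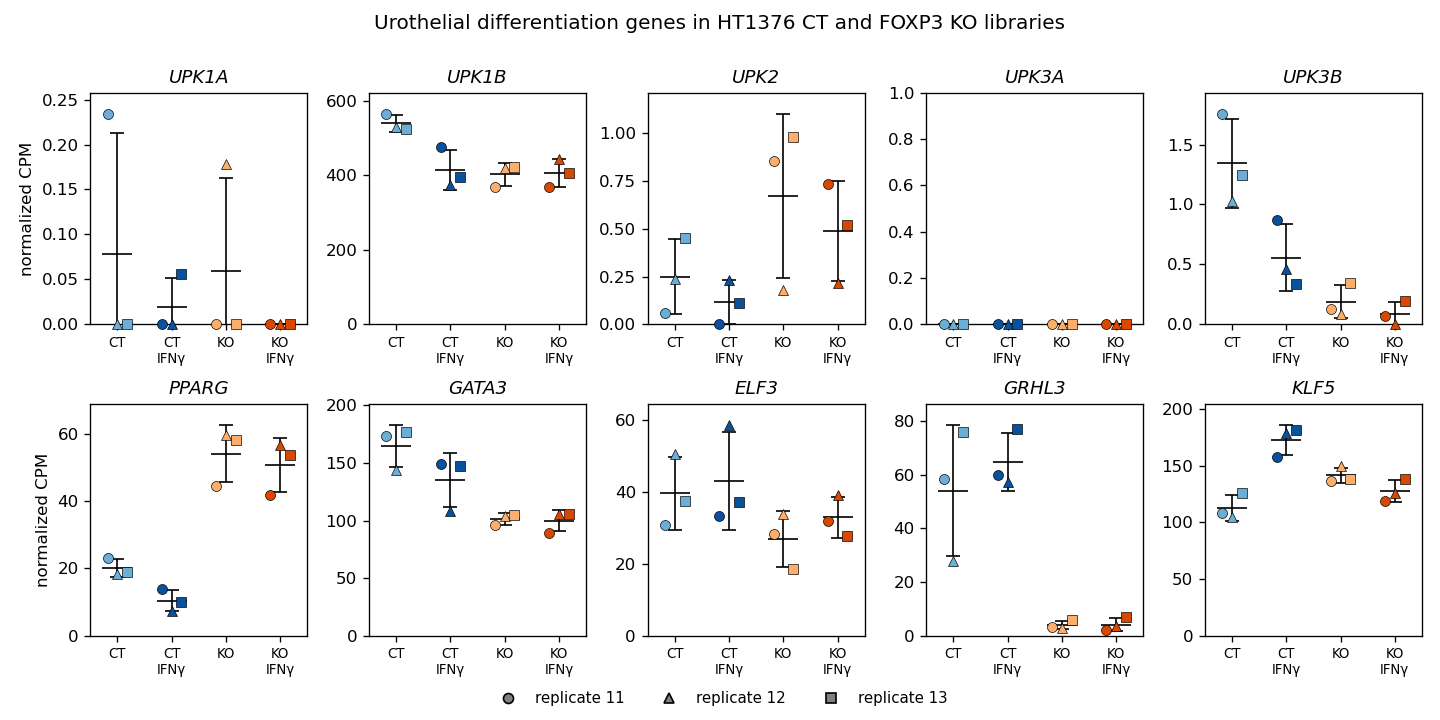
Normalized CPM (vertical axes, linear from 0, a scale for each gene) of the 10 genes in the 12 libraries, with groups on the horizontal axis, marker shapes for the replicate numbers, and the mean and SD of 3 libraries as bars. The 6 KO libraries lie between 2.14 and 6.85 CPM for GRHL3, below all 6 CT libraries, and above all of them for PPARG.

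The first comparison asked how the genes differed between the lines without IFNγ. PPARG and KLF5 were higher in KO, and GRHL3, UPK3B, GATA3 and UPK1B were lower. That was 6 of the 8 genes tested (UPK1A and UPK3A had fewer than 10 counts in the libraries compared), 2 higher and 4 lower, by edgeR's quasi-likelihood test with Benjamini-Hochberg adjustment. Of all 25320 genes tested, 32.1% were called, 14.0% higher and 18.2% lower, so a call between these clones was common. With edgeR's own expression filter, which kept fewer genes, 43.2% of 17629 were called, and again 6 urothelial genes. The median log2 fold change of the 8 genes was -0.47, against -0.02 over all genes tested.

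GRHL3, a grainyhead factor of barrier formation and umbrella cell differentiation, differed most. It measured 58.4, 27.7 and 76.0 CPM in replicates 11, 12 and 13 of untreated CT and 3.38, 2.85 and 5.70 CPM in untreated KO. The groups did not overlap, although replicate 12 of CT was well under the other 2. GRHL3 was 13.3-fold lower in KO (log2 fold change -3.74 ± 0.37 SE, edgeR adjusted p = 2.14e-05).

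PPARG went the other way. It measured 23.2, 18.2 and 18.8 CPM in untreated CT and 44.4, 59.8 and 58.2 CPM in untreated KO. The lowest KO library was above the highest CT library. PPARG was 2.73-fold higher in KO (log2 1.45 ± 0.16 SE, edgeR adjusted p = 4.24e-05).

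GATA3, a zinc finger factor of luminal identity, measured 173, 144 and 177 CPM in untreated CT and 95.7, 104 and 105 CPM in untreated KO. Its groups were separate, and it was 1.60-fold lower in KO (log2 -0.68 ± 0.12 SE, edgeR adjusted p = 0.000994). ELF3, an ETS factor of epithelial cells, measured 30.7, 50.7 and 37.4 CPM in untreated CT and 28.3, 33.8 and 18.5 CPM in untreated KO, and these ranges overlapped. Its log2 fold change of -0.54 ± 0.23 SE did not pass (edgeR adjusted p = 0.0992). With the replicate number as a block ELF3 was called, at -0.56 (edgeR adjusted p = 0.00338), and 7 of the 8 genes were then called, against 36.6% of all genes.

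KLF5, a Krüppel-like factor, measured 108, 104 and 126 CPM in untreated CT and 137, 149 and 138 CPM in untreated KO. The groups were separate but close, and the difference was 1.27-fold (log2 0.34 ± 0.11 SE, edgeR adjusted p = 0.0368). UPK1B measured 565, 529 and 523 CPM in untreated CT and 367, 420 and 422 CPM in untreated KO. Every KO library lay below every CT library, by 1.32-fold in the fit (log2 -0.40 ± 0.10 SE, edgeR adjusted p = 0.0112). With a library left out, the log2 fold change stayed between -0.41 and -0.30 for UPK1B and between 0.32 and 0.46 for KLF5. Both calls were lost in some of these fits. That of UPK1B was lost without KO replicate 11 (log2 -0.30, edgeR adjusted p = 0.0817) or CT replicate 11 (-0.33, 0.0599). That of KLF5 was lost without KO replicate 11 (edgeR adjusted p = 0.0507), CT replicate 11 (0.075) or CT replicate 12 (0.085), and also without the filter on low counts (0.0581).

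The sparse uroplakins differed in direction. UPK3B had 30, 13 and 47 counts in untreated CT and 3, 1 and 6 in untreated KO, and its log2 fold change of -2.75 ± 0.60 SE was called (edgeR adjusted p = 0.00489). Pooled over libraries, the depth-corrected ratio was 6.92 in favour of CT (95% exact conditional interval 3.60 to 14.9, counting error only). UPK2 had 1, 3 and 17 counts in CT against 20, 2 and 17 in KO. Those libraries overlapped and the difference did not pass (log2 1.36 ± 0.78 SE, edgeR adjusted p = 0.215).

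**Figure D2:**
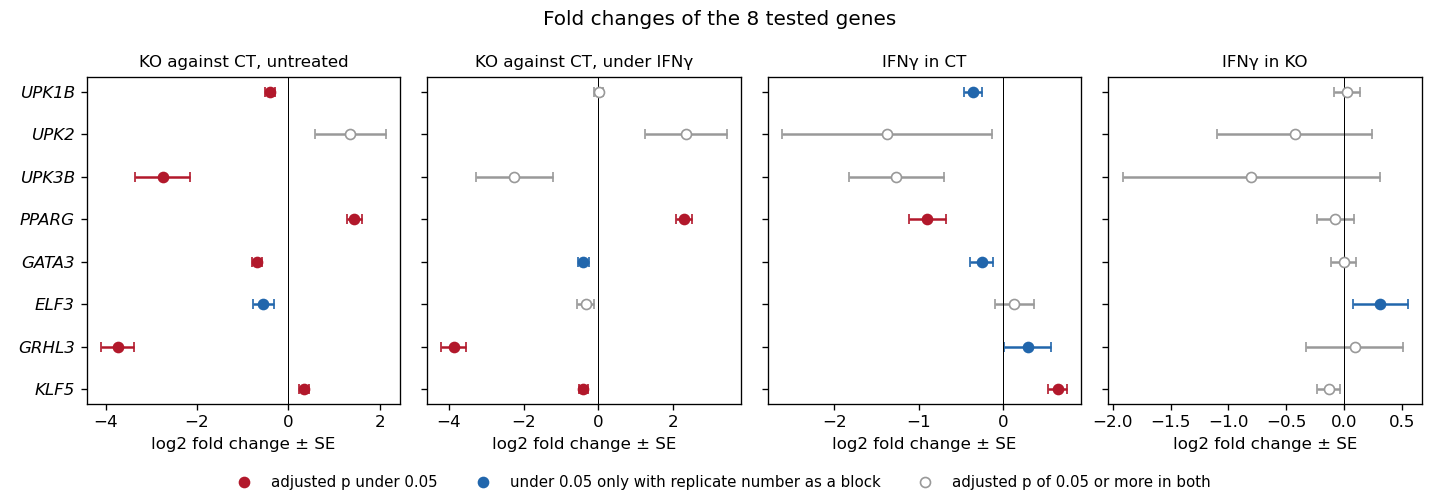
Log2 fold change and its SE (horizontal axes, with their own range in each panel) of the 8 tested genes in the 4 pairwise comparisons, filled red where edgeR's adjusted p was under 0.05 and blue where that held with the replicate number as a block but not without it. GRHL3 and PPARG stand apart from 0 in both comparisons of the lines, at -3.74 and 1.45 untreated and at -3.87 and 2.30 under IFNγ.

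Under IFNγ the same question was asked of the treated groups. These share no library with the untreated ones but come from the same clones, and same-numbered libraries deviated together within lines. PPARG was higher in KO, and GRHL3 and KLF5 were lower, which made 3 of 8 genes called, 1 higher and 2 lower. Of all 24388 genes tested, 28.9% were called, 13.2% higher and 15.7% lower. The median of the 8 genes was -0.36, against 0.02 over all genes.

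PPARG measured 13.7, 7.39 and 10 CPM in CT and 41.7, 56.7 and 53.8 CPM in KO under IFNγ. That was a 4.93-fold difference (log2 2.30 ± 0.22 SE, edgeR adjusted p = 1.59e-05), and the groups were far apart. GRHL3 measured 59.7, 57.5 and 77.2 CPM in CT and 2.14, 3.42 and 6.85 CPM in KO. It was 14.6-fold lower in KO (log2 -3.87 ± 0.33 SE, edgeR adjusted p = 8.41e-06). For both genes the lines were separated in every library of either treatment.

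KLF5 reversed its order. It measured 158, 179 and 181 CPM in CT and 119, 126 and 138 CPM in KO under IFNγ, so that each treated KO library was now below each treated CT library. The log2 fold change was -0.39 ± 0.12 SE (edgeR adjusted p = 0.0268). This call was lost without KO replicate 11 (edgeR adjusted p = 0.104), CT replicate 12 (0.0596) or CT replicate 13 (0.108).

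GATA3 measured 149, 108 and 148 CPM in CT and 89.2, 105 and 106 CPM in KO under IFNγ. The closest libraries differed little, and its log2 fold change of -0.39 ± 0.14 SE did not pass (edgeR adjusted p = 0.0608). It was called with the replicate number as a block (edgeR adjusted p = 0.0173), with all 12 libraries in 1 fit (0.0222), without the filter on low counts (0.0499) and without CT replicate 12 (0.0136). With the block 4 of the 8 genes were called, against 34.0% of all genes. UPK1B measured 475, 373 and 394 CPM in CT and 368, 442 and 406 CPM in KO. The treated groups overlapped, with a log2 fold change of 0.01 ± 0.13 SE (edgeR adjusted p = 0.955). ELF3 overlapped as well, at 33.4, 58.6 and 37.2 CPM in CT and 32.0, 39.2 and 27.9 CPM in KO, and did not pass (log2 -0.33 ± 0.23 SE, edgeR adjusted p = 0.318).

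UPK2 and UPK3B kept their directions at a depth that called neither. UPK2 had 0, 1 and 2 counts in CT and 11, 2 and 16 in KO under IFNγ, a pooled depth-corrected ratio of 5.72 in favour of KO (95% exact conditional interval 1.77 to 29.4, counting error only). UPK3B had 9, 2 and 6 counts in CT and 1, 0 and 6 in KO, a ratio of 4.10 in favour of CT (1.62 to 11.7). Over libraries their log2 fold changes of 2.36 ± 1.09 SE and -2.25 ± 1.03 SE did not pass (edgeR adjusted p = 0.133 and 0.129).

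The next comparisons asked what IFNγ did within each line, using the same libraries as the comparisons between lines. In CT, KLF5 rose and PPARG fell, and these were the 2 of 8 genes called, 1 higher and 1 lower. Of all 24416 genes tested, 5.35% were called, 3.53% higher and 1.82% lower. KLF5 rose 1.56-fold (log2 0.64 ± 0.11 SE, edgeR adjusted p = 0.00632), with every treated library above every untreated one. PPARG fell 1.87-fold (log2 -0.90 ± 0.22 SE, edgeR adjusted p = 0.0332), with every treated library below every untreated one. The call of PPARG held without replicate 11 of treated CT and was lost in each of the other 5 fits that left out a library, at adjusted p from 0.0566 to 0.145, and the number of genes called was then 1 in each of those 5.

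Same-numbered CT libraries deviated together, and with the replicate number as a block 5 of the 8 genes were called in CT, against 18.6% of all genes. The block added UPK1B (log2 -0.36, edgeR adjusted p = 1.94e-07), GATA3 (-0.26, adjusted p = 0.00469) and GRHL3 (0.32, adjusted p = 0.00713). UPK1B was lower under IFNγ in 3 of 3 pairs, by log2 differences of -0.25, -0.51 and -0.41 for replicates 11, 12 and 13. GATA3 was also lower in 3 of 3 pairs, at -0.21, -0.41 and -0.26. GRHL3 rested on 1 pair, with differences of 0.03, 1.05 and 0.02. Its unblocked log2 fold change was -0.02 once untreated CT replicate 12, the library where it was low, was left out. UPK3B had 90 counts in untreated and 17 in treated CT, a pooled ratio of 2.55 in favour of untreated (95% exact conditional interval 1.51 to 4.58, counting error only), which did not pass over libraries (log2 -1.26 ± 0.56 SE, edgeR adjusted p = 0.268).

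In KO 0 of the 8 genes were called for IFNγ by edgeR, against 0.982% of all 24131 genes tested, and 0 had an unadjusted p under 0.05. DESeq2 also called 0, against 1.64% of the 20850 genes it tested. The log2 fold changes were 0.03 ± 0.11 SE for UPK1B, -0.08 ± 0.16 for PPARG, -0.01 ± 0.11 for GATA3, 0.09 ± 0.42 for GRHL3 and -0.13 ± 0.10 for KLF5. The treated and untreated libraries of each of these genes overlapped. With the replicate number as a block 1 gene was called, against 5.53% of all genes. This was ELF3 (log2 0.35, edgeR adjusted p = 0.0196), which was higher under IFNγ in 3 of 3 pairs, by 0.18, 0.21 and 0.59.

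**Figure D3:**
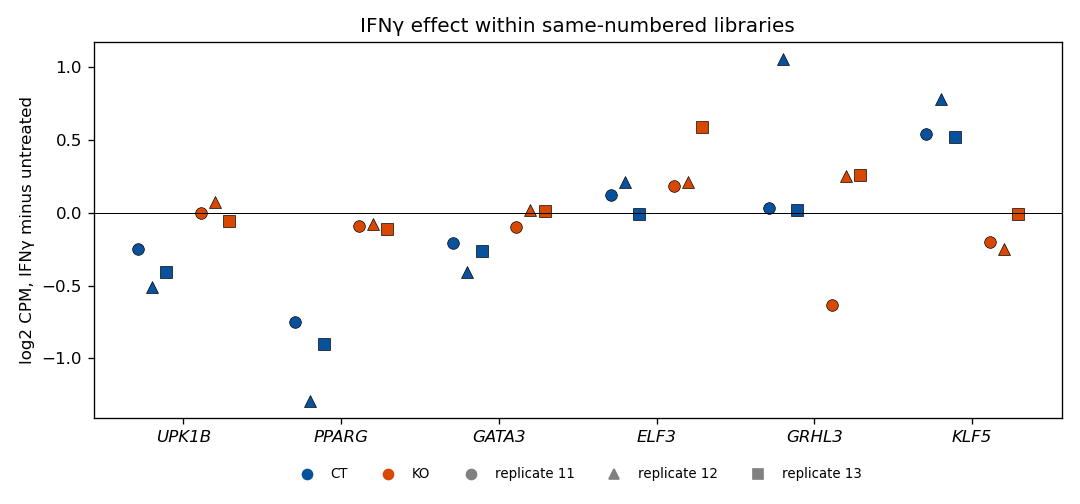
Difference in log2 CPM between the IFNγ-treated and the untreated library of the same replicate number (vertical axis) for the 6 genes of highest expression, in CT (blue) and KO (orange), with a marker shape for each replicate number. KLF5 was above 0 in the 3 CT pairs, at 0.52 to 0.78, and below 0 in the 3 KO pairs, at -0.01 to -0.25.

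A fit of all 12 libraries with a line by treatment term asked whether IFNγ acted differently in CT and KO. Without a block 0 of the 8 genes were called by edgeR, against 0.111% of all 27806 genes tested. By edgeR 3 of the 8 (UPK1B, PPARG and KLF5) had an unadjusted p under 0.05. DESeq2 called 1 (KLF5), against 1.12% of the 14316 genes it tested. With the replicate number as a block shared by both lines, KLF5 was called (log2 -0.78 ± 0.13 SE, edgeR adjusted p = 0.000799), 1 gene against 1.21% of all. Its unblocked value was -0.77 ± 0.16 SE (edgeR adjusted p = 0.104). PPARG had an interaction of 0.81 ± 0.28 SE (edgeR adjusted p = 0.641) and UPK1B of 0.38 ± 0.16 SE (adjusted p = 0.766). In CT PPARG differed by -0.75, -1.29 and -0.90 between paired libraries, and in KO by -0.09, -0.08 and -0.11. A block of replicate number within each line called all 3, against 4.75% of all genes, with PPARG at an adjusted p of 5.98e-05 and UPK1B at 0.000306 (edgeR).

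Replicate numbers were visible in single genes. ELF3 was highest in replicate 12 in each of the 4 groups, and GRHL3 was highest in replicate 13 in each of the 4. PPARG was highest in replicate 11 in both CT groups and lowest in replicate 11 in both KO groups.

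Genes that work with these factors were described as lists, beside the calls over all genes given above. Of 15 partner transcription factors, all tested, 4 were higher and 6 lower in untreated KO, with a median log2 fold change of -0.28. CEBPA, a C/EBP factor, was higher (log2 3.13 ± 0.24 SE, from 3.55 to 30.6 CPM), as were OVOL2 (1.65 ± 0.23), TP63, the master factor of basal cells (0.60 ± 0.16), and RXRA, the partner of PPARG (0.47 ± 0.12). EHF, an ETS factor like ELF3, was lower (-3.03 ± 0.27, from 181 to 21.9 CPM), as were OVOL1 (-2.39 ± 0.24), the receptor NOTCH1 (-1.48 ± 0.14) and KLF4 (-1.27 ± 0.11). The other grainyhead genes GRHL1 (0.26 ± 0.12) and GRHL2 (0.13 ± 0.12) did not pass. Under IFNγ 5 of the 15 were higher and 7 lower in KO, among them CEBPA (4.09 ± 0.34), TFAP2C (1.02 ± 0.20) and EHF (-3.66 ± 0.29). IFNγ in CT raised 2 of the 15, IRF1 (3.83 ± 0.11) and CEBPB (0.74 ± 0.16), and lowered TFAP2C (-0.78 ± 0.17). In KO it raised IRF1 (2.91 ± 0.11), the 1 call there. With the replicate number as a block IFNγ raised 5 and lowered 4 of the 15 in CT and raised 4 in KO, and 4 were higher and 7 lower in untreated KO than in CT.

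Of 22 luminal genes 15 were tested in the untreated comparison, and 5 were higher and 1 lower in KO, with a median of 0.28. CYP2J2 was higher (log2 6.05 ± 0.65 SE, from 0.764 to 47.0 CPM), as were CYP4B1 (2.48 ± 0.73), TBX3 (1.52 ± 0.18), PSCA and KRT7 (0.95 ± 0.18), while XBP1 was lower (-0.72 ± 0.24). FOXA1, a pioneer factor of luminal cells, had at most 2 counts in any library, and KRT20, the keratin of umbrella cells, at most 6. Under IFNγ 7 of 14 were higher in KO and 1 lower, with a median of 0.89. IFNγ raised XBP1 in CT (0.81 ± 0.19), the 1 call of 15, and in KO 0 of 15 were called, with a median of 0.09. With the block 8 of 15 were higher and 2 lower in untreated KO, and IFNγ raised 2 and lowered 3 of 15 in CT and raised 1 in KO.

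Of 10 genes known as PPARG targets 9 were tested in untreated libraries, and 5 were higher and 1 lower in KO. TXNIP (2.05 ± 0.15 SE) and PLIN2, the lipid droplet coat protein (1.39 ± 0.31), were among those higher, and CPT1A, which carries fatty acids into mitochondria, was lower (-1.73 ± 0.42). FABP4, a fatty acid carrier, was also called higher, with at most 11 counts in any library. The median was 1.39, or 0.92 with 2 sparse genes set to their bound at a floor of 3 counts per library in CT. Under IFNγ 3 of 9 were higher and 1 lower, with a median of 1.27, or 0.14 with 2 genes at their bound. In CT, where IFNγ lowered PPARG, TXNIP rose (1.15 ± 0.12), 1 other gene fell and 5 of the 7 tested did not pass. In KO 0 of 9 were called, with a median of -0.09. With the block IFNγ raised 4 and lowered 2 of the 7 in CT and raised 1 of 9 in KO.

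Apical vesicle traffic, which delivers uroplakins in normal umbrella cells, was lower in part. Of 10 genes 5 were lower in untreated KO and the other 5 did not pass, with a median of -1.01, or -0.58 with SNX31 at its bound. MAL, a raft proteolipid of apical transport, fell from 211 to 2.31 CPM (log2 -6.53 ± 0.24 SE). MAL2 (-1.92 ± 0.14), the GTPase RAB27B (-1.50 ± 0.16), SYTL2 and RAB11A were the other 4. Under IFNγ 4 of 9 were lower, again with MAL (-5.44 ± 0.31), MAL2 (-1.62 ± 0.12) and RAB27B (-1.32 ± 0.17). IFNγ lowered MAL in CT (-0.60 ± 0.12) and raised VAMP8 (0.48 ± 0.11), and in KO it raised RAB27B (0.79 ± 0.13). With the block it raised 2 and lowered 1 of 10 in CT and raised 3 of 9 in KO.

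**Figure D4:**
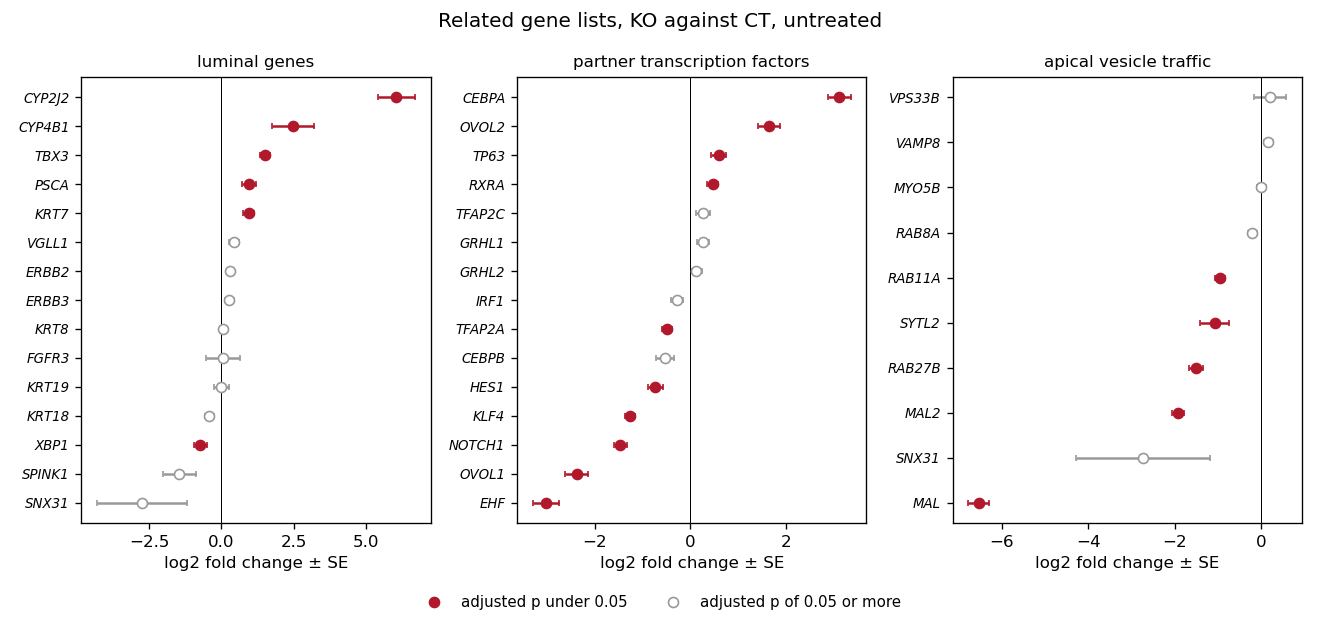
Log2 fold change and its SE (horizontal axes, with their own range in each panel) of the tested genes of 3 of the lists (luminal genes, partner transcription factors and apical vesicle traffic) in untreated KO against untreated CT, with filled points where edgeR's adjusted p was under 0.05. Points lie on both sides of 0 among partner transcription factors, with 4 called higher and 6 lower, while the 5 called genes of apical vesicle traffic are all below 0.

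Markers of other differentiation states moved beside these genes. Of 10 basal or squamous markers 4 were higher and 4 lower in untreated KO, among them DSC3 (log2 1.14 ± 0.15 SE), KRT14 (0.64 ± 0.18), CDH3 (-4.35 ± 0.34), DSG3 (-2.65 ± 0.37) and CD44 (-2.46 ± 0.33), and the list summed to 2930 to 3250 CPM in CT and 3360 to 3890 CPM in KO. Among 6 epithelial markers EPCAM (-1.92 ± 0.15) and CDH1 (-0.65 ± 0.12) were lower and KRT7 (0.95 ± 0.18) was higher, and KRT8, KRT18 and KRT19 did not pass. Of 7 mesenchymal markers 5 were tested, with CDH2 at 3 counts or fewer throughout and VIM at 4 or fewer. FN1 was higher (1.74 ± 0.53) and SNAI2 was lower (-0.47 ± 0.14). ZEB1 was also lower, at a low level of 0.797 CPM in CT and 0.100 CPM in KO. FN1 measured 230.0, 1150 and 1510 CPM in untreated CT and 2530, 4820 and 2200 CPM in untreated KO, and the list summed to 260.0 to 1540 CPM and 2220 to 4840 CPM, nearly all of it FN1. Of 4 neuroendocrine markers 3 were tested and did not pass, and INSM1 had 3 counts or fewer in all libraries. The part of these markers in the differences of the urothelial genes was not tested.

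For each of the 6 urothelial genes with a mean of at least 1 CPM, the genes of most similar pattern were found by Pearson's r of log2 CPM over the 12 libraries among 15677 genes. GRHL3 was closest to MAP2K3 (r = 0.996) and PTGS2 (0.993), PPARG to BZW2 (0.991) and H19 (0.990), and GATA3 to TUBB4B (0.972) and RELL2 (0.968). These 3 patterns followed the line, and 1747, 810 and 346 genes had an r over 0.9 with them. UPK1B was closest to RPS24 (0.936) and SORL1 (0.933), with 12 genes over 0.9, and ELF3 to AC048380.2 (0.919) and IDS (0.918), with 6. KLF5 was closest to TXNL4B (0.889) and AC092944.1 (0.879), with 0 genes over 0.9. The 12 libraries share 2 clones and their replicate numbers, so these are descriptions with no test.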

How the data were processed

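Ribosomal RNA-depleted total RNA libraries (KAPA RNA HyperPrep with RiboErase) of 12 samples were sequenced. The authors aligned reads to GRCh38 (Ensembl annotation) with STAR, version 2.7.11a per the submitters' processing notes, removed Mycoplasma reads with Kraken and deposited non-normalized htseq-count counts per gene. Strand setting and multimapper handling are not given in the sources used here. Counts were scaled by TMM factors over 12 libraries to CPM, and to RPKM with exon unions of GENCODE 44 (same build, another release). Main tests used edgeR 4.0.16 (R 4.3.3) quasi-likelihood fits of raw counts without covariates, on genes with at least 10 counts in the libraries fitted, with Benjamini-Hochberg adjustment over all genes and a threshold of 0.05. Log2 CPM had a prior count of 2. SE is the log2 fold change divided by the root of F. The fits were also run on simulated counts of independent libraries with a fixed dispersion. These had no replicate-number effect, so they cannot show how the tests behave with the pairing in these data. Alternatives were DESeq2 1.42.0, other scalings, filters and deviance, a replicate block, fold thresholds of 1 and 2 on the log2 scale, and each library left out in turn.

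Depth limits sparse genes, and intervals cover counting error only. No pair of libraries in a group was a copy. Members and lists were chosen with earlier results of these data known. All members were named. From each list, FOXA1, KRT20 and TP63 were named, with up to 3 genes in each direction of largest fold change among those called with at least 1 CPM in a group. PDGFRB, GRHL1, GRHL2, RXRA, KLF4, PSCA, KRT7, KRT8, KRT18, KRT19, SYTL2, RAB11A, ZEB1, FABP4 and SNX31, where outside that rule, were named after their values were seen. For likeness, the 2 genes of highest r were named. Some genes of these lists are not reported here.

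Replicate numbers come from the sample titles. Deviations of same-numbered samples from their group means correlated at 0.321 to 0.382 within CT, 0.428 to 0.564 within KO and 0.126 to 0.338 between lines of like treatment over 15677 genes of at least 1 CPM (different numbers -0.441 to 0.161). Over 27806 genes of at least 10 counts they were 0.139 to 0.152, 0.180 to 0.267 and 0.047 to 0.136 (different numbers -0.19 to 0.071). The numbers were therefore read as pairing samples within lines. Between lines the ranges overlapped those of different numbers in both gene sets. Block fits of KO against CT, and of the interaction with a block shared by both lines, thus rest on an uncertain pairing.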

Additional observations from a re-analysis of the deposited data

Results flagged for a closer look

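The effect of IFNγ on KLF5 differed between the lines, with a log2 interaction of -0.78 (edgeR with the replicate number as a block, adjusted p = 0.000799). KLF5 was higher under IFNγ in 3 of 3 CT pairs and lower in 3 of 3 KO pairs, the last of them by -0.01. The block was shared by both lines, and the pairing of replicate numbers between lines is uncertain. A block within each line also called KLF5. Without a block the interaction did not pass (edgeR adjusted p = 0.104).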

How the results depend on the processing

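Of 602 values of single genes under alternatives other than the fold thresholds, 540 kept direction and side of the threshold, 14 lost and 24 gained a call, and 24 changed sign, none of these called. The cause was not tested. Numbers of urothelial genes called follow, with the share of all genes called in brackets. With edgeR's own expression filter, KO against CT gave 6 (43.2%) untreated and 3 (39.1%) under IFNγ. IFNγ in CT gave 2 (7.97%) with that filter. Untreated KO against CT gave 3 (19.5%) with a log2 fold change over 1, 2 (12.3%) with one over 2, and 4 to 7 (24.6% to 31.1%) with a library left out. Under IFNγ KO against CT gave 2 (19.0% and 12.1%) with the fold thresholds and 2 to 3 (21.7% to 28.3%) with a library left out. It gave 4 without a filter (22.5%), with all 12 libraries in 1 fit (28.4%), with the block (34.0%) and with the block and bias-adjusted deviance (36.3%). IFNγ in CT gave 5 (18.6%) with the replicate block, 4 (16.8%) with the block and bias-adjusted deviance, 0 (2.78% and 1.46%) with the fold thresholds, and 1 to 3 (3.24% to 5.01%) with a library left out. IFNγ in KO gave 1 (5.53%) with the block and 0 (4.26%) with the block and bias-adjusted deviance. The interaction gave 1 without a filter (0.770%), with DESeq2 (1.12%), with the block (1.21%) and with the block and bias-adjusted deviance (0.827%), and 3 (4.75%) with the block within each line. Among the 10 urothelial genes the block changed no other call than those named above.

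With a library left out, log2 fold changes that changed sign ranged from -0.069 to 0.11 for UPK1B between lines under IFNγ, from -0.15 to 0.35 for ELF3 and -0.019 to 0.62 for GRHL3 under IFNγ in CT, from -0.49 to 0.42 for GRHL3, -0.21 to 0.034 for PPARG, -0.066 to 0.057 for GATA3 and -0.063 to 0.079 for UPK1B under IFNγ in KO, and for the interaction from -0.76 to 0.22 for GRHL3 and from -0.72 to 1.29 for UPK3B. UPK1B between lines under IFNγ was -0.034 with all 12 libraries in 1 fit, and GRHL3 under IFNγ in KO was -0.007 with the replicate block. Sparse uroplakins are limited by depth, since UPK2 and UPK3B had at most 20 and 47 counts in a library.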
